A study of Mus musculus with 19 samples.

Results

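Imprinted genes are the subject of this account: 44 named mouse genes, taken as a given list and looked up in a table of RNA counts of hematopoietic stem and progenitor cells. Each was found through its RefSeq accessions, and where a gene had several, the accession with the highest mean count over the 19 libraries stood for it. The 44 genes are a small share of the 24210 named genes in the table, which lists 33862 accessions. Of the 44, 17 had enough counts to be tested, 19 had some counts but too few, and 8 were listed at 0 in every library.

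The study measured polyA RNA of lin- Sca+ cKit+ cells, the compartment that holds hematopoietic stem cells and the earliest progenitors, sorted from C57BL/6 mice and not cultured. Wild-type mice without treatment gave 4 libraries (WT). Idh2 R140Q;Flt3-ITD mice with acute myeloid leukemia, which carry a mutant isocitrate dehydrogenase and an internal tandem duplication of the cytokine receptor FLT3, gave 3 libraries under vehicle (Idh2 vehicle in the text, IDH2-FLT3 in the plots) and 4 under AG-221, an oral inhibitor of mutant IDH2 (AG-221). Tet2-/-;Flt3-IDT mice with acute myeloid leukemia (the allele is spelled so in the labels and taken here as Flt3-ITD), which lack the 5-methylcytosine oxidase TET2, gave 4 libraries under vehicle (Tet2 vehicle in the text, TET2-FLT3 in the plots) and 4 under 5-Aza, a hypomethylating agent. All leukemic groups share the Flt3 allele, so no comparison here separates it from Idh2 or Tet2. Mice received AG-221 orally, 2 times daily over 4 to 5 weeks at 100 mg/kg as single agent or 40 mg/kg in combination, and the labels do not say which dose a library had. 5-Aza was given by intraperitoneal injection at 5 mg/kg on 5 days of every 21-day cycle for 4 cycles, while the series text also names decitabine for that drug. The labels give no ages, do not say how the alleles were driven, and do not say that the libraries come from separate animals, so a p-value here weighs a difference only against the spread from library to library, which may be technical. Libraries are called here by the last part of their column heads (wt1, V3-2, AG12, AZ10).

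An imprinted gene is transcribed mainly from the copy inherited from one parent. DNA methylation set in the germline on an imprinting control region marks the parental copies, and in several clusters a long non-coding RNA made from one copy keeps its neighbours silent. Many of these genes steer growth, and in the hematopoietic stem cell imprinted genes such as the cell-cycle inhibitor Cdkn1c and the Dlk1-Meg3 cluster are known for their link to quiescence. Mutant IDH2 makes a metabolite that inhibits TET enzymes, and azacytidine traps DNA methyltransferases. Counts do not separate the parental copies, so the values below are total RNA of each gene and say nothing of which copy made it.

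Depth ran from 9635795 to 20383132 assigned counts per library, and the deepest were V3-2 of Idh2 vehicle and V5-2 of Tet2 vehicle. The labels do not say whether V3 and V3-2, or V5 and V5-2, share an animal. Within the groups no pair of libraries was a copy of another (lowest chi-square per gene 16.0, for wt1 and wt2). V3 and V3-2 gave 321, and V5 and V5-2 gave 323. Pairs across groups were not compared. The table loses reads of genes with several accessions: 61.6% of their accessions were at 0 in all libraries against 18.9% of the others. Ly6a (Sca-1), on which the cells were sorted, had 6 accessions and 0 counts, and Kit had 2 accessions and 4 counts in all, while Cd34 was at 9.39 ± 2.37 CPM in WT (SD, n = 4; CPM are counts scaled to library size with TMM). A gene listed at 0 here is therefore not shown to be silent. Tet2 RNA in the Tet2-/- libraries (36.4 to 156 CPM) overlapped WT (117 to 145 CPM), and since the labels do not give the deleted part of the gene, this checks nothing.

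Of the 17 imprinted genes that could be tested, 7 were lower and 1 higher in Idh2 vehicle than in WT, and 6 were lower in Tet2 vehicle. Over all 11830 tested accessions, 10.4% were lower and 10.1% higher in the first comparison and 5.71% lower in the second. The lower genes of both comparisons include Ndn and Meg3, which passed the count filter only through WT. Without these and Ascl2, which would also fail the filter without WT, 5 of 14 and 4 of 14 were lower. Phlda2, a pleckstrin-homology protein of the Kcnq1ot1 domain that limits placental growth, and Ppp1r9a, the actin-binding neurabin of the Peg10-Sgce domain, were lower than WT in both mutant lines and more so in Idh2 vehicle. The growth suppressor Ndn and the non-coding RNA Meg3 were lower in every leukemic library than in any WT library. The vehicle groups differed in 4.28% of all accessions. Under AG-221, Phlda2 and Ppp1r9a were higher than under vehicle, where 4.39% of all accessions rose. With only the compared groups in the fit, neither gene passed between the vehicle groups or under AG-221. Under 5-Aza no tested imprinted gene passed against vehicle.

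The stretch of 250 bases before the transcription start is shown for the 5 genes that passed below WT in both vehicle groups, since CpG sites in such stretches are where DNA methylation acts. They are RefSeq sequences of build GRCm38.p6, written 5′ to 3′ on the strand of the gene, with every CpG dinucleotide in capitals. The counts were made on build mm9, so these positions are not those of the count table. Meg3 and Ppp1r9a have 2 stretches each, of which Meg3 is shown at the first and Ppp1r9a at both. Phlda2 lies at chr7:143502525-143502774 (minus strand), Ndn at chr7:62348027-62348276 (plus), Meg3 at chr12:109540746-109540995 (plus), Peg12 at chr7:62464511-62464760 (minus) and Ppp1r9a at chr6:4902725-4902974 and chr6:4903061-4903310 (plus).
Phlda2: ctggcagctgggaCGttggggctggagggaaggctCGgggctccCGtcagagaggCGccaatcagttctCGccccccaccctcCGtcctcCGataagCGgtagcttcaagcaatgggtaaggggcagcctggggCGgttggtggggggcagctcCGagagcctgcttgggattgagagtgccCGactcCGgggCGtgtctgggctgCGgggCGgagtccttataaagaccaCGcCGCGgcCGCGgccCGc
Ndn: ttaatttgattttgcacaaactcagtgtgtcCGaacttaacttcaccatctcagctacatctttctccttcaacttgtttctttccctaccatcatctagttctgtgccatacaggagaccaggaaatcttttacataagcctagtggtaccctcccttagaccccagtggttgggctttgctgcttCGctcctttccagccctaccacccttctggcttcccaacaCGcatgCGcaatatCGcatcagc
Meg3: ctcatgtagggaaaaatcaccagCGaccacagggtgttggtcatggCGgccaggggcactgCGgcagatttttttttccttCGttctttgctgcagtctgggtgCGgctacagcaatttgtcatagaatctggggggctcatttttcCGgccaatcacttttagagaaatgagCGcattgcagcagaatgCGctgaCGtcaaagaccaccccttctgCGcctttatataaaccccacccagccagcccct
Peg12: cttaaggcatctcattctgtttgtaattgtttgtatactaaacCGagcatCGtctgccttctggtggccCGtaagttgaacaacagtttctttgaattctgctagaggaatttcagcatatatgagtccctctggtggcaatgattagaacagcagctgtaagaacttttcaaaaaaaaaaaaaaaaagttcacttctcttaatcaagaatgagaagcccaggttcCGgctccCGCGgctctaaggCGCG
Ppp1r9a upstream start: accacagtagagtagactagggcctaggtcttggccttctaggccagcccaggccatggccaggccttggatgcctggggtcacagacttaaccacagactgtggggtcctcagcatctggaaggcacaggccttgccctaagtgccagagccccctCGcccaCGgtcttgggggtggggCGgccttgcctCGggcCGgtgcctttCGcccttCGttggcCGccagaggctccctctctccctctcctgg
Ppp1r9a downstream start: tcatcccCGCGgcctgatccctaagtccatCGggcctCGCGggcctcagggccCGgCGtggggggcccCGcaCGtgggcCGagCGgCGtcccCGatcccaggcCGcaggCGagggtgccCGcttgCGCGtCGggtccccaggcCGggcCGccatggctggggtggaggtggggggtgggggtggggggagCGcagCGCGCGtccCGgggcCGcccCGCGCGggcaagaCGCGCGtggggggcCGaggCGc
The Phlda2 stretch holds 21 CpG, at the 83.7th percentile of all 32851 promoter stretches of this length, and the Ndn stretch holds 5, at the 44.4th. The Meg3 stretch shown holds 10 and the one not shown 0, and the Peg12 stretch holds 8. Ppp1r9a has 8 in its upstream and 35 in its downstream stretch, the latter at the 97.0th percentile. CpG number thus ranged widely among genes that were lower in both vehicle groups. RefSeq starts were matched for 36 of the 44 imprinted genes (52 stretches), with a median of 10 CpG against 6 over all stretches. The hexamer TGCCGC, read on either strand (so also as GCGGCA), is the core of the motif bound by the imprint-maintaining zinc-finger protein ZFP57 when methylated. It was in 9 of the 52 stretches (17.3%), Meg3 among them, against 8.68% of all stretches. The hexamer itself holds a CpG, and these shares were not matched for CpG number. Stretches of the same gene were counted separately. A match in this window is a description and does not show binding, and no deposited file used here measures methylation.

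Levels between genes can be compared only per length, so FPKM (fragments scaled to transcript length and library depth, as deposited) was used for that. In WT, Cd81, a tetraspanin of the cell surface, was highest at 520 ± 35.7 FPKM (SD, n = 4), followed by Impact, an inhibitor of the GCN2 stress pathway, at 55.0 ± 19.7. Inpp5f, Peg13, Peg12, Phlda2, Copg2 and Kcnq1ot1 came next, between 21.9 ± 3.57 and 15.8 ± 4.21 FPKM, and neighbours in that run did not differ beyond their SD. Ppp1r9a stood at 13.7 ± 4.37, Ndn at 8.91 ± 2.93, Zrsr1 at 6.69 ± 1.23 and Igf2r at 4.63 ± 0.814 FPKM. Meg3, Mcts2 and Mkrn3 were between 2.25 ± 1.17 and 1.77 ± 0.514 FPKM. Ascl2 (0.496 ± 0.516) and Ube3a (0.366 ± 0.168) were lowest of those tested. A mean of at least 5 CPM over the 19 libraries was reached by 10 of the 44.

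Counts of all 19 libraries were fitted together with edgeR's quasi-likelihood test, and a gene was called at a Benjamini-Hochberg adjusted p under 0.05 over 11830 tested accessions. In Idh2 vehicle against WT, 7 of the 17 tested imprinted genes were lower and 1 was higher, while 20.5% of all tested accessions passed (10.4% lower, 10.1% higher). The median log2 fold change was -1.39 over the 17 and 0.03 over all tested. In Tet2 vehicle against WT, 6 were lower and 0 higher, against 5.71% and 4.43% of all (10.1% together), with medians of -0.93 and 0.07. Ndn and Meg3 passed the count filter only through WT, so they had to be higher there. Ascl2 passed with 1 WT and 2 Idh2 vehicle libraries, so it too would fail without WT, but its direction was not set. Without these 3, 5 of 14 were lower and 1 higher in the first comparison and 4 of 14 lower in the second. On plain library totals the median of all accessions moved to -0.24 in the first and -0.14 in the second, and the share of calls that were higher from 49.2% to 26% and from 43.7% to 22.9%, so these counts are relative to the scaling. Both comparisons share the WT libraries and are not independent of each other.

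The list holds 20 maternally and 24 paternally expressed genes. In Idh2 vehicle against WT, 3 of 8 tested maternally expressed genes were lower and 1 higher, and 4 of 9 paternally expressed genes were lower and 0 higher, with median log2 fold changes of -1.41 and -1.39. In Tet2 vehicle against WT, 3 of 8 and 3 of 9 were lower. Meg3, Ascl2 and Ndn would fail the filter without the WT libraries. With them left out, 2 of 6 maternally and 3 of 8 paternally expressed genes were lower in Idh2 vehicle, beside 10.4% of all accessions. In Tet2 vehicle 2 of 6 and 2 of 8 were lower, beside 5.71% of all accessions. The assignment of copies is textbook knowledge and varies between tissues for some genes, such as Cd81.

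**Figure D1:**
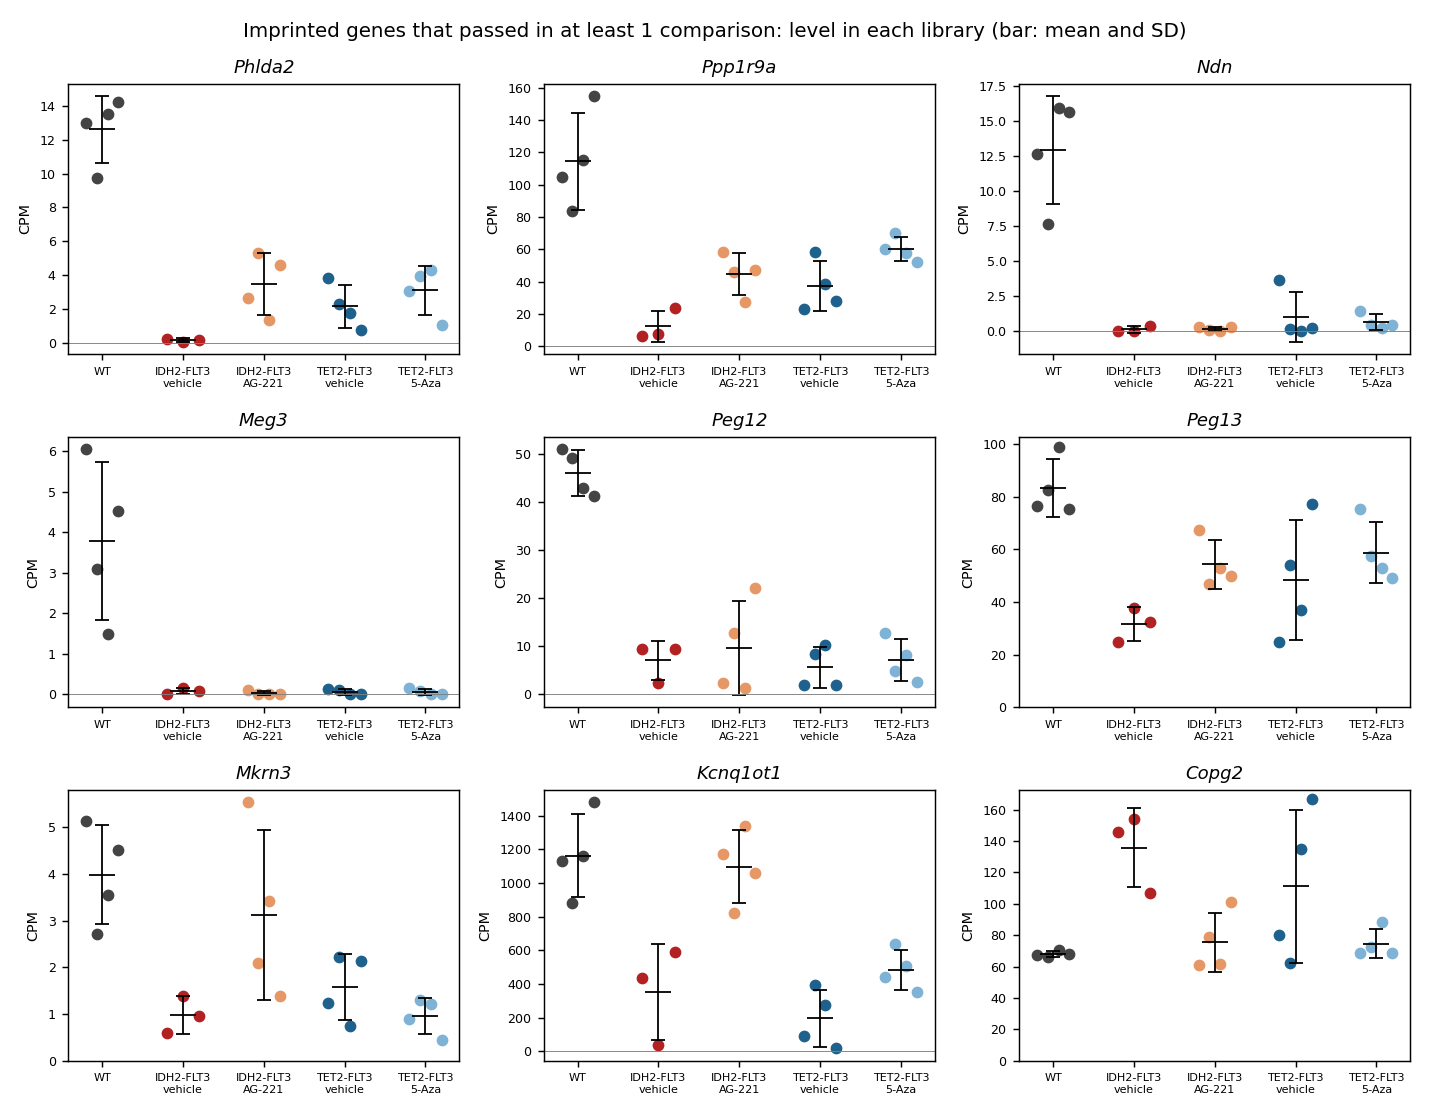
CPM (vertical axes) of the 9 imprinted genes that passed in at least 1 of 7 pairwise comparisons, in each of the 19 libraries by group (horizontal axes); points are libraries and bars show mean and SD. WT points of Phlda2, Ppp1r9a, Ndn, Meg3 and Peg12 lie above every point of both vehicle groups.

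In the Kcnq1ot1 domain on chromosome 7, 4 of 7 genes could be tested. Phlda2 was at 13, 9.74, 13.5 and 14.2 CPM in WT and at 0.253, 0.0481 and 0.160 CPM in Idh2 vehicle (V3, V3-2, V9). Under AG-221 it was at 2.62, 5.30, 1.37 and 4.62 CPM (AG1, AG12, AG13, AG8). In Tet2 vehicle it was at 3.82, 2.30, 1.76 and 0.779 CPM (V1, V19, V5, V5-2) and under 5-Aza at 3.07, 3.96, 4.33 and 1.08 (AZ10, AZ11, AZ16, AZ17). All WT libraries lay above all others, and the 3 Idh2 vehicle libraries lay below all others.

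Phlda2 differed from WT by -6.38 ± 0.79 in Idh2 vehicle (log2 fold change ± SE, edgeR adjusted p = 4.87e-05) and by -2.57 ± 0.55 in Tet2 vehicle (adjusted p = 0.00628). Its Idh2 vehicle value rests on 6 counts against 638 in WT, a ratio of 94.4 with an exact 95% counting interval of 43.1 to 258. Idh2 vehicle was also lower than Tet2 vehicle (-3.81 ± 0.75, adjusted p = 0.00585), a comparison in which 4.28% of all accessions passed (2.35% lower, 1.93% higher) and 2 of the 17 imprinted genes were lower, Phlda2 and Ppp1r9a. The ranges of the vehicle groups did not overlap for 1 lower gene, Phlda2, and 1 higher, Ascl2 (4.51% and 4.07% of all). That Phlda2 difference did not pass without V3-2 (adjusted p = 0.0528) or with the compared groups fitted alone (adjusted p = 0.157). Under AG-221 and under 5-Aza Phlda2 did not pass against WT (-1.85 ± 0.53, adjusted p = 0.0682, and -2.01 ± 0.53, adjusted p = 0.0576), but each passed in 5 of 9 other settings, DESeq2 among them (adjusted p = 0.00775 and 0.00313).

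Kcnq1ot1, the long non-coding RNA that silences this domain on the paternal copy, was at 1130, 884, 1160 and 1480 CPM in WT. In Idh2 vehicle it was at 438, 36.5 and 588 CPM and in Tet2 vehicle at 93.4, 394, 277 and 18.1 CPM. AG-221 libraries (1170, 821, 1340 and 1060 CPM) overlapped WT, and 5-Aza libraries (444, 636, 507 and 355 CPM) lay below WT. Vehicle libraries lay below every WT library, and V3-2 and V5-2, the deepest, were the lowest of their groups.

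Kcnq1ot1 fell by 2.57 ± 0.69 (log2, edgeR adjusted p = 0.0236) in Tet2 vehicle against WT. The call ended without wt4 (adjusted p = 0.0600) or V1 (0.0656), and the value was -3.17 without V19. In Idh2 vehicle it did not pass (-1.72 ± 0.74, adjusted p = 0.105), nor did it against vehicle under AG-221 (1.63 ± 0.74, adjusted p = 0.144) or 5-Aza (1.31 ± 0.66, adjusted p = 0.424). The Idh2 vehicle difference passed in 3 of 9 other settings (adjusted p = 0.0499 with no filter, 0.0397 with DESeq2, 0.00617 with limma), and the AG-221 difference in 1 (0.0295 with limma). The transcript lies within Kcnq1 on the other strand, the library kit does not mark strand, and Kcnq1 itself had 5 counts in all libraries together.

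Cd81, the most abundant of the list, was at 783, 726, 694 and 607 CPM in WT, at 417, 106 and 483 CPM in Idh2 vehicle and at 367, 377, 586 and 141 CPM in Tet2 vehicle. Both vehicle groups lay below WT without overlap, but their spread was wide and neither passed (-1.07 ± 0.43, edgeR adjusted p = 0.0833, and -0.93 ± 0.39, adjusted p = 0.128). The Idh2 vehicle difference passed without V9 (-1.43, adjusted p = 0.043) and in 3 of 9 other settings, and the Tet2 vehicle difference in 2 of 9, on plain library totals and with limma. V3-2 and V5-2 were again lowest. AG-221 libraries ran from 385 to 591 CPM and 5-Aza libraries from 446 to 670 CPM. Ascl2, a helix-loop-helix factor of placenta and lymphoid cells, ran from 0 to 1.81 CPM over all groups and passed in none of the comparisons.

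The other 3 genes of the domain were untested. Cdkn1c, which encodes the cell-cycle inhibitor p57, had 1 count in all 19 libraries together over its kept accession, and Slc22a18, a transporter, had 8. Tssc4 was listed at 0. All 3 have several accessions, so their levels cannot be read from this table.

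**Figure D2:**
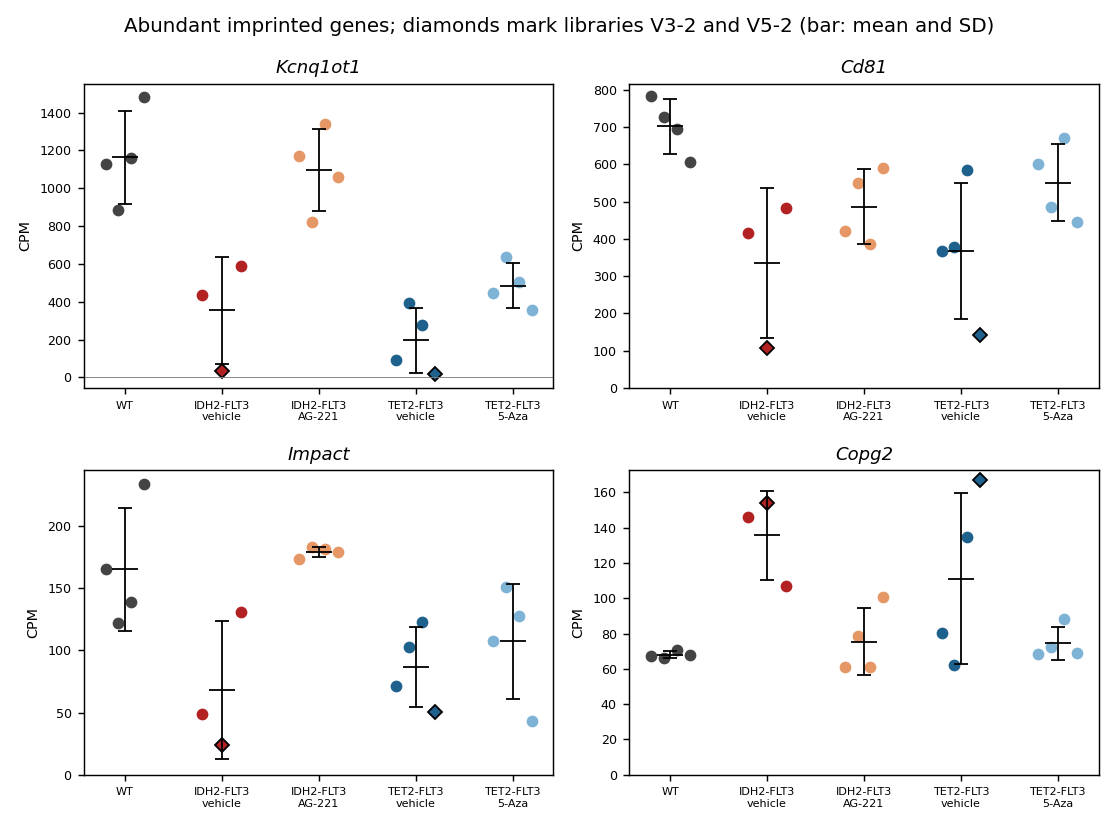
CPM (vertical axes) of 4 abundant imprinted genes in each library by group (horizontal axes); points are libraries, diamonds mark the deepest vehicle libraries V3-2 and V5-2, and bars show mean and SD. The diamonds are lowest of their group in Kcnq1ot1, Cd81 and Impact and highest in Copg2.

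In the Peg10-Sgce domain on chromosome 6, Ppp1r9a was the only gene of 5 that could be tested. It was at 105, 83.4, 115 and 155 CPM in WT, at 5.99, 7.31 and 23.5 CPM in Idh2 vehicle and at 58.3, 46.2, 27.1 and 47.0 CPM under AG-221. In Tet2 vehicle it was at 23.2, 58.6, 38.4 and 28.2 CPM and under 5-Aza at 60.0, 70.0, 57.7 and 52.1 CPM. WT lay above all other libraries, and AG-221 lay above Idh2 vehicle without overlap, with V9 the vehicle library nearest to it.

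Ppp1r9a fell by 3.23 ± 0.45 (log2, edgeR adjusted p = 0.000145) in Idh2 vehicle against WT, a value that was -4.11 without V9, and by 1.62 ± 0.38 (adjusted p = 0.0107) in Tet2 vehicle. The difference between the vehicle groups (-1.60 ± 0.42, adjusted p = 0.0337) ended without V3 (0.232), V3-2 (0.132) or V19 (0.112), with the groups fitted alone (0.384) and with limma on log2 FPKM (0.0792), and was -2.49 without V9. Against WT neither AG-221 (-1.36 ± 0.37, adjusted p = 0.0564) nor 5-Aza (-0.93 ± 0.37, adjusted p = 0.211) passed. The AG-221 difference passed in 8 of 9 other settings, with the accessions of a gene summed as the exception (adjusted p = 0.0567), and in 0 of 8 fits without 1 library. The 5-Aza difference passed in 1 of 9, with the compared groups alone (adjusted p = 0.00411).

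The neighbours of Ppp1r9a had few counts. Asb4, an ankyrin and SOCS-box protein, had 39 counts in WT and 4, 6, 7 and 15 in Idh2 vehicle, AG-221, Tet2 vehicle and 5-Aza. Sgce, epsilon-sarcoglycan, had 30 counts in WT and 0, 5, 3 and 6 in the same order. Relative to library size WT was at least 8.88-fold higher in Sgce than Idh2 vehicle, taking 3 counts over the group as the floor, while the exact 95% counting interval, which also holds the error of the 30 WT counts, starts at 6.79-fold. With no filter on low counts Sgce passed in that comparison (edgeR adjusted p = 0.0205), while Asb4 did not (0.139). Peg10 and Calcr were listed at 0, each with several accessions.

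In the Snrpn-Ube3a domain on chromosome 7, 4 of 6 genes could be tested. Ndn, Peg12 and Mkrn3 were lower in Idh2 vehicle, where 10.4% of all accessions were lower, and the direction of Ndn was set by the filter. Ndn encodes necdin, a MAGE-family growth suppressor that is known in stem cells for restraining cell division. It was at 12.6, 7.63, 15.9 and 15.6 CPM in WT, at 0, 0 and 0.401 CPM in Idh2 vehicle and at 0.302, 0.0842, 0 and 0.308 CPM under AG-221. In Tet2 vehicle it was at 3.68, 0.192, 0 and 0.205 CPM and under 5-Aza at 1.46, 0.485, 0.228 and 0.451 CPM. Every leukemic library lay below every WT library, and V1 stood above the other leukemic libraries.

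Ndn had 652 counts in WT against 5, 8, 34 and 32 in Idh2 vehicle, AG-221, Tet2 vehicle and 5-Aza. WT was higher by a ratio of 116 (exact 95% counting interval 49.4 to 358) over Idh2 vehicle and 72.2 (36.4 to 168) over AG-221. Both passed (edgeR adjusted p = 0.00330 and 0.00641), as did 1.67% of all accessions in the lower direction for AG-221 against WT. Since Ndn passed the count filter only through WT, its direction was set by the filter. The 5 counts in Idh2 vehicle all came from V9.

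Against Tet2 vehicle the Ndn ratio was 21.5 (15.2 to 31.3, adjusted p = 0.0275) and against 5-Aza 19.6 (13.8 to 29.0, adjusted p = 0.0449, where 1.10% of all accessions were lower). The Tet2 vehicle call ended without wt1, wt3, wt4, V19 or V5-2 (adjusted p = 0.0531, 0.0674, 0.0787, 0.0536 and 0.0615), and without V1 the log2 fold change was -6.48 in place of -3.81 (adjusted p = 0.00137). The 5-Aza call ended without any 1 of its 8 libraries (adjusted p 0.0647 to 0.153).

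Peg12, a Frat-family protein that binds the kinase GSK3, was at 51.0, 49.1, 42.8 and 41.3 CPM in WT. It was at 9.28, 2.36 and 9.30 CPM in Idh2 vehicle and at 1.91, 8.25, 10.2 and 1.80 CPM in Tet2 vehicle. Under AG-221 it was at 2.21, 12.6, 1.27 and 22.0 CPM and under 5-Aza at 12.6, 4.85, 8.12 and 2.44 CPM. Every leukemic library lay below every WT library, and the AG-221 libraries spread most.

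Peg12 was lower in Idh2 vehicle (log2 -2.73 ± 0.84, edgeR adjusted p = 0.0268) and in Tet2 vehicle (-3.05 ± 0.76, adjusted p = 0.0163). The first call ended without wt1 (adjusted p = 0.05), V3 (0.0664) or V3-2 (0.105). Against WT, AG-221 (-2.27 ± 0.74, adjusted p = 0.128) and 5-Aza (-2.71 ± 0.75, adjusted p = 0.0695) did not pass, but they did in 3 and 6 of 9 other settings, DESeq2 among them (adjusted p = 0.0236 and 0.00354).

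Mkrn3, a makorin ubiquitin ligase known for holding back puberty, was at 5.13, 2.72, 3.55 and 4.51 CPM in WT, 0.590, 1.39 and 0.962 CPM in Idh2 vehicle and 5.54, 2.10, 3.42 and 1.39 CPM under AG-221. In Tet2 vehicle it ran from 0.743 to 2.21 CPM and under 5-Aza from 0.451 to 1.29 CPM. AG-221 libraries overlapped WT, and those of the other leukemic groups did not. Mkrn3 fell by 1.99 ± 0.59 (log2, edgeR adjusted p = 0.0212) in Idh2 vehicle. That call ended without wt1, wt4 or V3 (adjusted p = 0.0533, 0.0546 and 0.0927) and with no filter on low counts (0.0509). It did not pass in Tet2 vehicle (-1.32 ± 0.52, adjusted p = 0.104), in 5-Aza against WT (-2.03 ± 0.53, adjusted p = 0.0558) or in AG-221 against vehicle (1.63 ± 0.58, adjusted p = 0.0740). Of 9 other settings these passed in 2, 7 and 1, and DESeq2 called all 3 (adjusted p = 0.0441, 0.00353 and 0.0291).

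Ube3a, the ubiquitin ligase expressed from the maternal copy in neurons, ran from 0.041 to 2.59 CPM, both extremes lying in Tet2 vehicle, and passed in no comparison. It has 3 accessions and overlaps the opposite-strand Snhg14 (20.1 CPM), so its value is uncertain. Snrpn, with 3 accessions, had 6 counts in all, and Magel2, which has 1 accession, had 1 count.

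In the Dlk1-Meg3 domain on chromosome 12, the maternally expressed long non-coding RNAs had most of their counts in WT. Meg3 was at 6.05, 3.10, 1.49 and 4.51 CPM in WT. Its highest leukemic value was 0.162 CPM, in AZ10, and 8 of the 15 leukemic libraries were at 0. The 194 counts of WT stood against 4 in Idh2 vehicle, 1 in AG-221, 2 in Tet2 vehicle and 3 in 5-Aza, so that WT and leukemic libraries did not overlap.

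WT exceeded Idh2 vehicle in Meg3 by a ratio of 43.1 (exact 95% counting interval 16.6 to 160). The ratios over AG-221, Tet2 vehicle and 5-Aza were 172 (30.5 to 6820), 109 (29.7 to 904) and 62.3 (21.0 to 305). Intervals cover counting error only and do not hold the spread between libraries. In edgeR's test all 4 passed (adjusted p = 0.00167, 0.00102, 0.000952 and 0.00266). Meg3 passed the count filter in 4 WT libraries and 0 leukemic ones, so it was tested only because WT is high and its direction was set by the filter. These p-values are therefore given as a description.

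Rian and Mirg, transcribed downstream of Meg3 in the same direction, were below the filter. Rian had 16, 12, 2 and 2 counts in the WT libraries (32 in all) and 3, 3, 4 and 0 in the 4 leukemic groups in the order above. In Rian AG12, with 3 counts (0.253 CPM), lay above wt3 (0.165 CPM) and wt4 (0.161 CPM), so leukemic libraries overlapped WT. Mirg had 14 counts in WT and 0, 1, 0 and 0. WT exceeded 5-Aza in Rian at least 10.3-fold and Tet2 vehicle in Mirg at least 5.23-fold, with 3 counts over the group as floor. The exact 95% counting intervals, which also hold the error of the WT counts, start lower, at 7.89-fold and 3.72-fold. Without a filter neither passed in any comparison with WT (lowest edgeR adjusted p 0.0545 for Rian and 0.0973 for Mirg). The paternally expressed genes of the domain gave no basis for comparison: Dlk1, a Notch-like ligand with 5 accessions, was listed at 0, and Rtl1 had 9 counts.

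**Figure D3:**
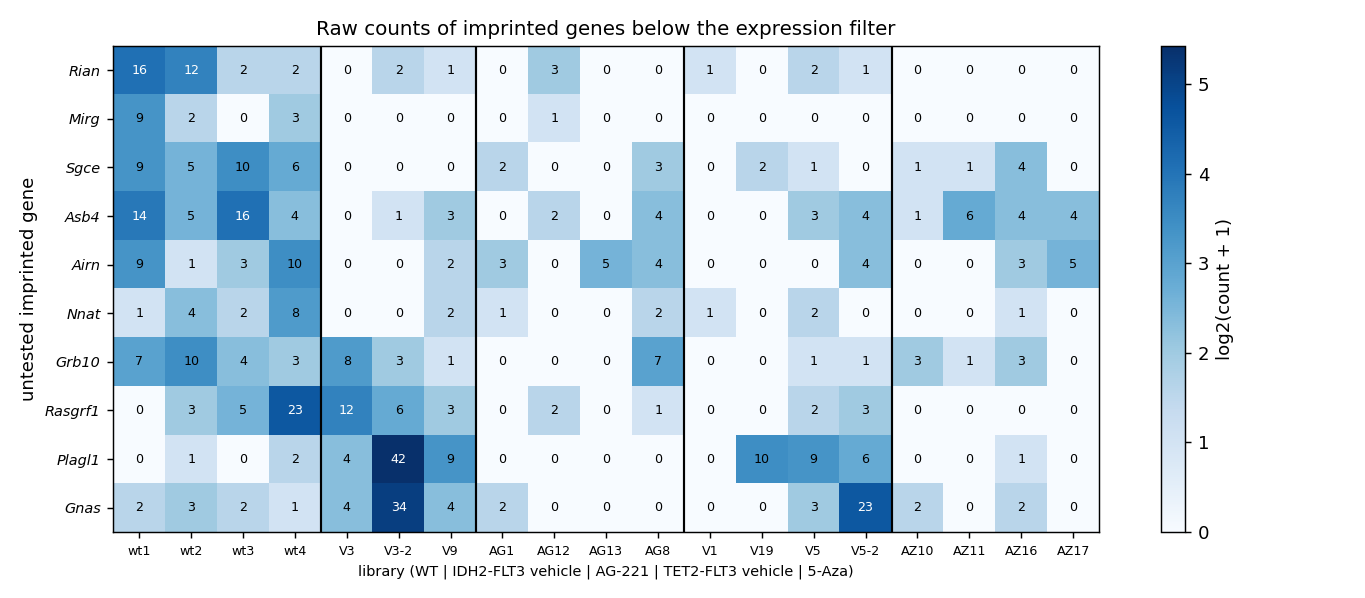
Raw counts (printed in each cell; shade is log2 of the count plus 1) of 10 imprinted genes below the count filter (vertical axis) in the 19 libraries (horizontal axis, black lines between groups). Counts of Rian, Mirg, Sgce and Asb4 gather in WT, and those of Plagl1 and Gnas in vehicle libraries.

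Of the genes in smaller domains, Peg13, a paternally expressed non-coding RNA of chromosome 15, was at 76.4, 82.5, 99.0 and 75.3 CPM in WT and at 25, 37.6 and 32.6 CPM in Idh2 vehicle. In Tet2 vehicle it was at 24.8, 53.9, 37.0 and 77.3 CPM, with V5-2 inside the range of WT. AG-221 libraries ran from 46.9 to 67.5 CPM and 5-Aza libraries from 49.2 to 75.2 CPM, both above Idh2 vehicle. Peg13 fell by 1.39 ± 0.31 (log2, edgeR adjusted p = 0.00427) in Idh2 vehicle, and this passed in each of the 9 other settings and with each library left out. It did not pass in Tet2 vehicle (-0.78 ± 0.28, adjusted p = 0.0766) or in AG-221 against vehicle (0.77 ± 0.31, adjusted p = 0.100). Without V5-2 the Tet2 vehicle difference passed (-1.08, adjusted p = 0.017), as it did in 3 of 9 other settings. Peg13 lies inside Trappc9, which was at 4.71 ± 4.20 CPM in WT (SD, n = 4) and 0.788 ± 0.557 in Idh2 vehicle (n = 3).

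Copg2, a coat protein subunit of vesicles next to Mest on chromosome 6, was the only one of the 17 called higher than WT. It was at 67.4, 65.9, 70.8 and 67.7 CPM in WT and at 146, 154 and 107 CPM in Idh2 vehicle. AG-221 libraries were at 61.0, 78.6, 61.3 and 101 CPM, Tet2 vehicle libraries at 80.2, 62.0, 135 and 167 CPM, and 5-Aza libraries ran from 68.4 to 88.1 CPM. Idh2 vehicle lay above WT and AG-221 without overlap, and V3-2 and V5-2 were the highest of their groups.

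Copg2 rose by 1.0 ± 0.28 (log2, edgeR adjusted p = 0.0172) in Idh2 vehicle against WT. The call ended without V3 (adjusted p = 0.0674) or V3-2 (0.0645), on plain library totals (0.73, 0.139) and with limma on log2 FPKM (0.68, 0.149). Tet2 vehicle against WT (0.71 ± 0.26, adjusted p = 0.0896) and AG-221 against vehicle (-0.84 ± 0.28, adjusted p = 0.0601) did not pass. The first passed without V19 (0.9, adjusted p = 0.0248), and the second without V9 (-0.98, 0.0347), without AG8 (-1.02, 0.0466) and with DESeq2 (0.0414). Mest, its paternally expressed neighbour with 3 accessions, was listed at 0.

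Impact, on chromosome 18, was at 166, 122, 139 and 234 CPM in WT, at 49.2, 24.2 and 131 CPM in Idh2 vehicle and at 174, 183, 182 and 179 CPM under AG-221. In Tet2 vehicle it was at 71.3, 103, 123 and 50.1 CPM and under 5-Aza at 108, 151, 128 and 43.0 CPM. AG-221 lay above its vehicle group without overlap and inside the range of WT. None of these differences passed: Idh2 vehicle against WT gave -1.28 ± 0.46 (edgeR adjusted p = 0.0531), Tet2 vehicle against WT -0.93 ± 0.42 (0.152) and AG-221 against vehicle 1.4 ± 0.46 (0.0584). The first and the last depended on V9: without it Idh2 vehicle against WT was -2.18 (adjusted p = 0.00224) and AG-221 against vehicle 2.3 (0.00255), while without V3-2 they were -0.87 (0.203) and 0.99 (0.247). With all libraries they passed in 6 and 4 of 9 other settings, DESeq2 among them (0.0225 and 0.0206).

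The other tested genes passed in none of the comparisons. Inpp5f, an inositol phosphatase, ran from 79.3 to 103 CPM in WT, 52.1 to 97.5 in Idh2 vehicle, 72.2 to 90.8 under AG-221, 30.3 to 91.7 in Tet2 vehicle and 53.0 to 83.8 under 5-Aza. Its largest difference from WT, in Tet2 vehicle, was -0.63 ± 0.28 (log2, edgeR adjusted p = 0.150), which passed without V5 (-0.93, 0.042) and with limma on log2 FPKM (-0.91, 0.0432). Igf2r, the receptor that clears the growth factor IGF2, ran from 29.9 to 45.0 CPM in WT and 18.0 to 31.0 in Idh2 vehicle (-0.60 ± 0.39, adjusted p = 0.286), from 11.2 to 30.2 under AG-221, 16.5 to 42.9 in Tet2 vehicle and 13.9 to 40.7 under 5-Aza. Airn, the non-coding RNA that silences Igf2r on the paternal copy, had 23 counts in WT and 2, 12, 4 and 8 in the leukemic groups in the order above, and the pair overlaps on opposite strands.

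Zrsr1, a retrogene of a splicing factor, ran from 22.6 to 30.6 CPM in WT, 13.8 to 23.7 in Idh2 vehicle (-0.59 ± 0.30, edgeR adjusted p = 0.170), 18.6 to 30.6 under AG-221, 11.5 to 25 in Tet2 vehicle (-0.48 ± 0.28, adjusted p = 0.274) and 17.0 to 22.8 under 5-Aza. It lies in Commd1 (173 CPM) on the other strand and has a parent copy, Zrsr2, so reads may be shared. Mcts2 ran from 0.409 to 3.89 CPM, lies inside H13 and is a copy of Mcts1 (164 to 259 CPM as group means), so its reads cannot be assigned with certainty. It passed in no comparison.

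Among genes below the filter, Plagl1 and Gnas had most of their counts in vehicle libraries. Plagl1, the zinc-finger growth suppressor Zac1, had 3 counts in WT, 55 in Idh2 vehicle (42 of them in V3-2), 0 in AG-221, 25 in Tet2 vehicle and 1 in 5-Aza. With no filter it passed as higher in Idh2 vehicle than in WT (log2 3.95, edgeR adjusted p = 0.0314) and than in AG-221 (adjusted p = 0.00877, where AG-221 is at 0 counts). Gnas, the stimulatory G protein subunit with 9 accessions of which 7 were at 0, had 8, 42, 2, 26 and 4 counts in the same order, 34 in V3-2 and 23 in V5-2. Its kept accession is a non-coding one, so these counts do not measure the protein-coding transcript, and it passed in none of the unfiltered comparisons.

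Grb10, an adaptor that dampens insulin receptor signaling, had 24, 12, 7, 2 and 7 counts in WT, Idh2 vehicle, AG-221, Tet2 vehicle and 5-Aza. Rasgrf1, a Ras exchange factor, had 31, 21, 3, 5 and 0, with 23 of the WT counts in wt4. Nnat, a membrane proteolipid, had 15, 2, 3, 3 and 1. Without a filter none of these passed in a comparison with WT, the lowest edgeR adjusted p being 0.054 for Rasgrf1 under 5-Aza. Peg3 had 5 counts, all in WT, Igf2 had 6, Usp29 had 1 and Nap1l5 had 13. H19, Zim1 and Dcn were listed at 0. The highest value of any untested gene was 2.02 CPM.

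Under AG-221 against vehicle, 2 of the 17 tested genes rose and 0 fell, while 4.39% of all accessions rose and 5.29% fell (9.68% in all), and the median log2 fold change was 0.51 over the 17 and 0 over all. Phlda2 rose by 4.53 ± 0.75 (log2, edgeR adjusted p = 0.00338) and Ppp1r9a by 1.87 ± 0.42 (adjusted p = 0.0154). On plain library totals the share of calls over all accessions that were higher moved from 45.3% to 70%. With only the compared groups in the fit neither passed (adjusted p = 0.0660 and 0.0807). The Ppp1r9a call also ended without V3 (0.0740) or V3-2 (0.0893), and its value was 2.75 without V9. The ranges of the 2 groups did not overlap for 5 higher genes (Phlda2, Ppp1r9a, Kcnq1ot1, Impact and Peg13) and 1 lower (Copg2), against 13% and 10.8% of all accessions. This comparison shares its vehicle libraries with the comparison against WT, so neither stands apart from the other.

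In 5-Aza against vehicle, 0 of 17 passed in edgeR, 1 had an unadjusted p under 0.05, and DESeq2 called 0. Of all accessions 1.88% passed (1.45% lower, 0.431% higher). The median log2 fold change was 0.28 over the 17 and -0.05 over all, and 0 imprinted genes had ranges without overlap (4.26% of all accessions lower, 2.83% higher). Phlda2 differed by 0.56 ± 0.53 (edgeR adjusted p = 0.721), Ppp1r9a by 0.69 ± 0.37 (0.463) and Kcnq1ot1 by the value given above.

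Whether the responses to the drugs differed was tested by subtracting the 5-Aza response from that to AG-221. By edgeR 0 of 17 passed, against 0.228% of all accessions (0.0254% lower, 0.203% higher), 3 had an unadjusted p under 0.05, and DESeq2 called 1. Phlda2 had a difference of 3.97 ± 0.90 on the log2 scale (adjusted p = 0.0645), with the mean at 0.154 ± 0.103 CPM (SD, n = 3) in Idh2 vehicle and 3.48 ± 1.81 (n = 4) under AG-221, and at 2.16 ± 1.27 and 3.11 ± 1.45 (n = 4 each) in Tet2 vehicle and 5-Aza. That difference passed without V9 (4.06, adjusted p = 0.0238) or V5-2 (4.3, 0.0259), and in 3 of 9 other settings: plain library totals (0.0491), no filter (0.0248) and DESeq2 (0.003). The drug is given in a different line each time, so drug and line cannot be told apart.

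In the comparisons of treated libraries with WT, 2 of 17 were lower in each, Ndn and Meg3, which passed the filter only through WT. Of the 14 without these and Ascl2, 0 passed in edgeR, while 4 had an unadjusted p under 0.05 in each comparison and DESeq2 called 3 in each. Over all accessions 2.71% passed for AG-221 and 1.72% for 5-Aza, of which 1.04% and 0.617% were higher. The share of these calls that were higher, 38.3% and 36%, was 28.7% and 16.7% on plain library totals and 16.9% and 8.9% with limma on log2 FPKM. The ranges of AG-221 and WT did not overlap for 7 lower and 0 higher genes (8.85% and 6.98% of all accessions) and those of 5-Aza and WT for 9 lower and 0 higher (13.4% and 11.6%). For the vehicle groups these numbers were 10 lower and 1 higher in Idh2 vehicle (20.0% and 17.1% of all) and 8 lower and 0 higher in Tet2 vehicle (11.5% and 6.98%). Each of these counts of lower genes includes Ndn and Meg3, whose direction was set by the filter.

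**Figure D4:**
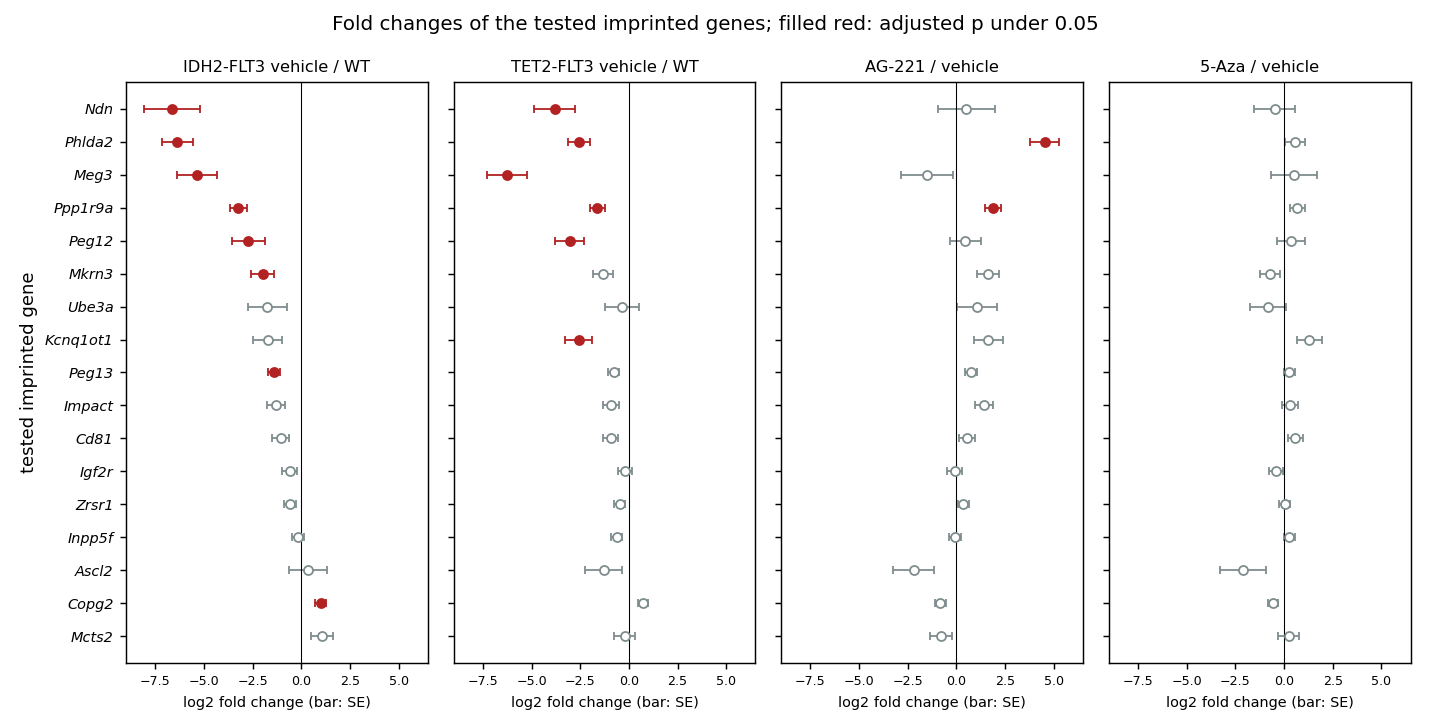
Log2 fold change (horizontal axes, bars show SE) of the 17 tested imprinted genes (vertical axis) in 4 comparisons; red points have an edgeR adjusted p under 0.05. Calls lie to the left of 0 in both comparisons with WT except Copg2, and to the right for Phlda2 and Ppp1r9a under AG-221.

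Sums of marker genes also differed between the groups. The summed level of 8 stem cell markers was 822 to 1320 CPM in WT, 23.8 to 278 in Idh2 vehicle, 507 to 940 under AG-221, 395 to 808 in Tet2 vehicle and 718 to 972 under 5-Aza. Of its 7 tested genes 5 were lower in Idh2 vehicle and 2 in Tet2 vehicle, and 4 were higher under AG-221 than under vehicle. V9, the Idh2 vehicle library with the highest stem cell sum (278 CPM), also had the highest Ppp1r9a, Impact, Kcnq1ot1, Cd81, Peg12 and Ndn of its group. Phlda2 was highest in V3, and Mkrn3, Peg13, Copg2 and Meg3 were highest in V3-2, which had the lowest stem cell sum (23.8 CPM). Peg12 was nearly equal in V9 (9.30 CPM) and V3 (9.28 CPM). Ndn rests on 5 counts in this group and Meg3 on 4. A link of these levels to the stem cell sum was not tested. The 6 granulocyte-monocyte progenitor markers summed to 2020 to 12200 CPM in WT and 19300 to 102000 in Idh2 vehicle, where 6 of 6 were higher. In Tet2 vehicle they summed to 5680 to 10400 CPM, inside the range of WT, and 1 of 6 was higher. Under AG-221 they summed to 6380 to 17700 CPM, and 4 of 6 were lower than under vehicle, beside 5.29% of all accessions. Under 5-Aza they summed to 5070 to 6260 CPM, and 0 of 6 passed against vehicle.

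Markers of mature and non-blood cells did not move in 1 direction. The 6 neutrophil markers summed to 1430 to 3830 CPM in WT, 805 to 23700 in Idh2 vehicle, 1270 to 21900 under AG-221, 171 to 2150 in Tet2 vehicle and 456 to 1570 under 5-Aza, and 2 of 5 tested (Ltf and Ngp) were higher in Idh2 vehicle than in WT. The 6 B cell markers summed to 351 to 392 CPM in WT and to at most 139 CPM in any leukemic library, and 5 of 5 tested were lower in both vehicle groups. The 4 tested erythroid markers were lower in both vehicle groups, with Hba-a1 and Hbb-b1 at 0. The 5 T cell markers found summed to 9.41 to 19.3 CPM in WT, 2.61 to 4.57 in Idh2 vehicle and 2.30 to 4.59 in Tet2 vehicle, while AG-221 libraries (5.13 to 14.8 CPM) overlapped WT. The 6 megakaryocyte markers summed to 260 to 315 CPM in WT and to at most 237 CPM in any leukemic library. The 8 stroma and endothelium markers summed to 4.23 to 6.51 CPM in WT and 0.721 to 1.76 in Idh2 vehicle, with Pecam1 at 0, and AG13 (9.38 CPM) lay above every WT library. Meg3 and Ndn are known from stroma and endothelium as well. The part of these cell types in the lower imprinted RNAs was not tested, and in sorted bulk cells fewer cells of a type and less RNA per cell cannot be told apart.

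Of 24 genes whose products set or keep imprints 12 were tested. In each of the 8 comparisons edgeR called 0 of these 12, with 0 to 3 at an unadjusted p under 0.05. Of all accessions 0.228% to 20.5% passed, so 0 of 12 is little to go by where that share is low. The summed level of the 24 was 2110 to 2560 CPM in WT and 1920 to 2620 in Idh2 vehicle. The median log2 fold change of the tested genes was 0.13 in Idh2 vehicle and -0.10 in Tet2 vehicle against WT. Setdb1, Uhrf1, Dnmt3b, Dppa3, Tdg and Ehmt2 were listed at 0. Of 43 further imprinted genes 41 were found and 20 tested. In Idh2 vehicle against WT 4 were lower (Begain, Phactr2, Slc22a3 and Tspan32) and 1 higher (Qpct), beside 10.4% and 10.1% of all accessions. The median log2 fold change of the 20 was -0.45. In Tet2 vehicle 3 were lower (H13, Phactr2 and Tspan32), beside 5.71% of all accessions, with a median of -0.56. Phactr2 averaged 2.47 CPM in WT and 0.244 to 0.498 CPM in the leukemic groups, under the 0.826 CPM of the filter. It was thus tested through WT, and its direction was set by the filter.

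Among these further genes, Slc22a3, an organic cation transporter of the Igf2r-Airn domain, fell from 171 ± 11.8 CPM (SD, n = 4) in WT to 31.3 ± 36.0 (n = 3) in Idh2 vehicle (log2 -2.45 ± 0.59 SE, edgeR adjusted p = 0.00717) and rose to 126 ± 34.4 (n = 4) under AG-221 (adjusted p = 0.0373). Tspan32, a tetraspanin at the edge of the Kcnq1ot1 domain, fell from 3.85 ± 0.624 CPM in WT to 1.04 ± 0.228 in Idh2 vehicle (adjusted p = 0.00408) and was at 3.29 ± 0.489 under AG-221 (adjusted p = 0.0225 against vehicle). Qpct, glutaminyl cyclase, was the 1 of the 20 called under 5-Aza, from 17.7 ± 12.3 CPM in vehicle to 3.14 ± 1.14 (n = 4 each, adjusted p = 0.0407). Of all accessions 1.45% were lower there. Under AG-221 2 of the 20 rose against vehicle, Slc22a3 and Tspan32, beside 4.39% of all accessions. The drug comparisons share their vehicle libraries with those against WT, and these genes were not fitted with libraries left out.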

How the data were processed

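RNA of 19 libraries in 5 groups was analysed from 2 tables. The raw counts per RefSeq accession were deposited by the authors, and per the submitters' processing notes reads were handled with STAR 2.4.0f1 and featureCounts of Subread 1.4.5-p1 on build mm9. The FPKM values were deposited as a second table, and how they were made is not given in the sources used here, nor is the strand setting of the counting.

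Accessions were named through RefSeq and GENCODE tables, and the 189 without a name hold 3.47% of counts. CPM are counts over library totals times TMM factors (0.761 to 1.22). The main test was edgeR 4.0.16 (R 4.3.3) with the quasi-likelihood fit of all 19 libraries and 5 groups after filterByExpr (at least 0.826 CPM), with two-sided contrasts and Benjamini-Hochberg adjustment over 11830 accessions. The fit was tested on simulated data. Libraries held 9635795 to 20383132 counts, and the biological coefficient of variation was 42.9%.

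DESeq2 1.42.0, limma 3.58.1 on log2(FPKM + 1), other size factors, library totals, no filter, a stricter filter (5 CPM in 3 libraries), the compared groups alone, summed accessions and leaving out each library were alternatives. Genes were described in full if they passed in at least 1 of 7 pairwise comparisons or had a mean of at least 5 CPM, which gave 14. From the other lists only genes that passed against WT under vehicle or against vehicle under a drug were named. The genes and lists were chosen with earlier results of these data known. Within the leukemic groups the column heads show the group but not which sample a column is. Count intervals are exact at 95% and cover counting error only.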

Additional observations from a re-analysis of the deposited data

Results flagged for a closer look

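In 56 groups of 4 libraries, 3 had a library far from the others by Dixon's criterion, and chance alone gives about 1 in 20. Ndn stood at 3.68 CPM in V1 of Tet2 vehicle, where the other 3 libraries were at most 0.205 CPM. Meg3 stood at 0.101 CPM in AG1, which is 1 count, where the other AG-221 libraries were at 0. Inpp5f stood at 90.8 CPM in AG13, where the other AG-221 libraries were between 72.2 and 74.7 CPM.

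The effect of the 2 mutant lines under vehicle differed for 2 of the 17 tested genes in edgeR's test of the difference. Over all accessions 4.28% passed (2.35% lower). Phlda2 was lower in Idh2 vehicle than in Tet2 vehicle by a log2 fold change of -3.81 (adjusted p = 0.00585), lower in 3 of 3 libraries than in any of the 4, but not past the threshold without V3-2 (adjusted p = 0.0528). Ppp1r9a was lower by -1.60 (adjusted p = 0.0337), with V9 of Idh2 vehicle (23.5 CPM) just above V1 of Tet2 vehicle (23.2 CPM), and did not pass without V3 (0.232), V3-2 (0.132) or V19 (0.112). With the compared groups fitted alone neither gene passed in edgeR (adjusted p = 0.157 for Phlda2 and 0.384 for Ppp1r9a). Ppp1r9a also did not pass with limma on log2 FPKM (0.0792). The stem cell marker sum was also lower in Idh2 vehicle (23.8 to 278 CPM) than in Tet2 vehicle (395 to 808 CPM), and its part in these differences was not tested.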

How the results depend on the processing

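Of the 17 tested imprinted genes, the number called by edgeR was 8 in Idh2 vehicle, 6 in Tet2 vehicle, 2 under AG-221 and 2 under 5-Aza against WT, 2 under AG-221 and 0 under 5-Aza against vehicle, 2 between the vehicle groups and 0 for the difference of drug responses. In the same order 20.5%, 10.1%, 2.71%, 1.72%, 9.68%, 1.88%, 4.28% and 0.228% of all accessions passed. Numbers that moved by more than 1.5 times follow. With limma on log2(FPKM + 1) these became 10 for Tet2 vehicle, 5 and 5 for the drugs against WT, 4 for AG-221 against vehicle and 1 between the vehicle groups. With DESeq2 they became 5 and 5 for the drugs against WT, 5 for AG-221 against vehicle and 1 for the difference, beside 11 for Idh2 vehicle and 8 for Tet2 vehicle. With library totals they became 4 and 5 for AG-221 and 5-Aza against WT and 1 for the difference. With no filter they became 4 for AG-221 against WT, 4 for AG-221 against vehicle and 1 for the difference. With the compared groups alone they became 4 and 8 for AG-221 and 5-Aza against WT, 0 for AG-221 against vehicle and 0 between the vehicle groups. Without V3-2 and V5-2 together, an alternative chosen after seeing the data, they became 4 and 7 for the drugs against WT, 1 for AG-221 against vehicle and 1 between the vehicle groups. Calls over all accessions moved as well. In Tet2 vehicle against WT 675 were lower and 524 higher in the main fit, and 1580 and 304 with limma. For 5-Aza against WT they were 130 and 73, with limma 769 and 75. Totals over all accessions were counted only for the main fit, other size factors, library totals and limma. The changed numbers are thus not a result about imprinted genes alone. The cause of these changes was not tested.

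Leaving out each library in turn gave 6 to 12 calls for Idh2 vehicle, 4 to 7 for Tet2 vehicle, 2 to 2 and 1 to 1 for AG-221 and 5-Aza against WT, 1 (without V3-2) to 6 (without V9) for AG-221 against vehicle, 0 to 0 for 5-Aza against vehicle, 0 to 2 between the vehicle groups and 0 to 3 (without V9) for the difference. In these fits no log2 fold change printed for 1 of the 17 tested genes changed sign, and Plagl1 and the further imprinted genes were not fitted with libraries left out. Calls over all accessions were not counted with libraries left out. No paired analysis was possible because the columns of the leukemic groups carry no replicate number of the sample titles. Genes under 0.826 CPM were not tested, and those with several accessions may lose reads, so their absence from the calls is a limit of the table.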
